A study of Mus musculus with 10 samples.

Results

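The genes described are 36 genes of sterol and fatty acid synthesis and of its control by the SREBP transcription factors, taken by gene symbol from a table of read counts of 55487 mouse genes. They comprise 7 genes of the mevalonate steps, 11 of the steps from squalene to sterol, 6 of SREBP control, 5 of fatty acid synthesis and 7 elongases and desaturases. The rule that chose them used gene symbols and no measured value, but it was set with earlier results of these data known. The libraries came from the spinal cord of 5 male *Arg1*-eYFP mice on a C57BL/6 background, aged 8 to 12 weeks, in which yellow fluorescent protein (YFP) is made under the *Arg1* promoter. All mice had experimental autoimmune encephalomyelitis (EAE, paralysis after immunization with a myelin peptide) and were taken at peak disease. Viable CD3−Ly6G−CD45+CX3CR1+ cells of each mouse were sorted into 200000 YFP+ cells (ARG1+) and 100000 YFP− cells (ARG1−), giving 5 libraries of each kind from the same animals (m2, m234, m6, m235 and m236). The sort does not separate monocyte-derived cells, microglia and border macrophages. In such sorted populations, fewer cells of a type and less RNA per cell cannot be told apart.

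SREBP-1 and SREBP-2 are held in the endoplasmic reticulum by SCAP and the INSIG proteins while sterols are plentiful. When sterols fall, SCAP carries them to the Golgi, where proteases release the active factor that switches on cholesterol synthesis (mainly SREBP-2) and fatty acid synthesis and desaturation (mainly SREBP-1). Macrophages that clear myelin take up much cholesterol, and a second system, the liver X receptors (LXR), senses oxysterols and drives cholesterol export.

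SREBP targets carry sterol regulatory elements, often close to a CCAAT box that binds NF-Y, so the promoters of the members were read first. RefSeq (GRCm38.p6) gave a promoter of 250 bases before to 50 bases after the start for 29 of the 36 genes and none for *Fdps*, *Fdft1*, *Sqle*, *Stard4*, *Fads1*, *Scd1* and *Scd2*. The core TCACNCCAC, searched on both strands, lay in 1 of the 29 (3.45%), *Hmgcs1*, and in 1.22% of all 27025 promoters. Only exact matches within this window were sought. Sterol elements with other letters or in another place were not counted, so a promoter without a match may still hold one. CCAAT on either strand lay in 22 of the 29 (75.9%) and in 37.9% of all promoters. Stretches are shown upstream of both the RefSeq start and the gene's span in the table. They are from *Hmgcs1*, which alone held an exact match to the core, and from *Srebf2*, the factor itself. *Mvd* and *Mvk* are shown as enzymes of one pathway whose calls below, with the animal as a block, had opposite directions. Each stretch runs 5′ to 3′ on the gene's strand, and capitals mark the exact matches (ATTGG is CCAAT on the other strand).
Hmgcs1 (chr13:119690151-119690350, + strand): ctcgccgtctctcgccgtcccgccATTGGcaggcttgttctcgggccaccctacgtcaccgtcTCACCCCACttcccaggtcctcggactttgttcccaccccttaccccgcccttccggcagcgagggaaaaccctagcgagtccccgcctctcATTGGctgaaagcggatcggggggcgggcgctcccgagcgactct
Srebf2 (chr15:82147069-82147180, + strand): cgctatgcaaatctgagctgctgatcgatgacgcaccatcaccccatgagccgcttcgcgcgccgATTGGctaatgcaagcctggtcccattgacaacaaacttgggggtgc
Mvd (chr8:122443423-122443622, − strand): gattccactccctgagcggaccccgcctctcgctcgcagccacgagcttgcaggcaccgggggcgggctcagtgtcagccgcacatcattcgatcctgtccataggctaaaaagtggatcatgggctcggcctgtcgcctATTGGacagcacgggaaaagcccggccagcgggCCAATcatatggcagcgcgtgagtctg
Mvk (chr5:114444069-114444268, + strand): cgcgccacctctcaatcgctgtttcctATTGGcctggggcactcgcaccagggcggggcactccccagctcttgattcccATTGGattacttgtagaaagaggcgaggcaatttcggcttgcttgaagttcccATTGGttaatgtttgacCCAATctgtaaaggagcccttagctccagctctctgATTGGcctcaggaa
In *Hmgcs1*, a synthase of the mevalonate steps, the match to the core began 137 bases before the start, between CCAAT boxes at −176 and −45. A match describes the letters and not a bound site.

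The libraries held 28870482 to 33826355 counts in ARG1+ cells and 8396863 to 35455643 in the ARG1− sort. The ARG1− library of m234 was the smallest, with at least 28212174 counts in each of the remaining ARG1− libraries. *Arg1* itself was higher in ARG1+ cells by 5.45 on the log2 scale (edgeR's quasi-likelihood test, FDR 1.07e-07). Levels are given as CPM (counts scaled to a common library size, with TMM factors), fold changes as log2 of ARG1+ over ARG1−, and a gene was called at a false discovery rate (FDR) below 0.05 over all 13740 genes tested. Because both sorts of an animal deviated together, each test was also run with the animal as a block. Its value stands beside the first for the members called in either fit, and the pathway genes named below without it kept their side of the threshold. *Csf1r*, the CSF1 receptor of the macrophage lineage, was abundant in both sorts, with means of 2142 and 2462 CPM (SD 220 and 434, n = 5). Of the 6 gate and lineage markers, *Cd68* (0.58, FDR 0.00155) and *Itgam* (0.35, FDR 0.0385) were higher and *Aif1* lower (−0.46, FDR 0.0204). With the block, *Csf1r* (−0.19, FDR 0.0153), the sort marker *Cx3cr1* (−0.97, FDR 9.24e-05) and *Ptprc* (−0.22, FDR 0.00192) were lower too. The 9 microglia markers summed to 753 to 1128 CPM in ARG1+ libraries and to 811 to 2667 CPM in ARG1− libraries, where m234 was the highest and the other 4 reached 1456 CPM. Of these markers, 0 were called without the block (edgeR, 5 lower at an unadjusted p under 0.05, DESeq2 2 lower) and 7 were lower in ARG1+ cells with it. The 5 monocyte markers summed to 678 to 1020 CPM in the ARG1+ sort and 1454 to 1962 CPM in ARG1− libraries, with 4 of 5 lower, and the 8 dendritic cell markers to 10.9 to 26.9 and 23.5 to 44.6 CPM, with 5 of 6 tested lower. The 7 border macrophage markers summed to 701 to 1364 CPM in the ARG1+ sort and 322 to 804 CPM in ARG1− libraries, with *Mrc1* and *Pf4* higher, but *F13a1*, which did not pass without the block (FDR 0.0511), made up 1021 of 1101 CPM and 595 of 627 CPM of the mean sums, while *Cd163*, *Lyve1* and *Folr2* were near 0. The 8 oligodendrocyte markers summed to 149 to 184 CPM in the ARG1+ libraries and 140 to 203 CPM in the ARG1− libraries, with *Mog* near 0 and 0 of 7 tested called (edgeR, 1 higher and 1 lower at an unadjusted p under 0.05, likewise by DESeq2), while with the block *Mbp* was higher and *Cnp* and *Cldn11* lower. The 6 astrocyte markers summed to 64.2 to 99.3 CPM in the ARG1+ sort and 56.5 to 65.6 CPM in the ARG1− sort. Most of this was *Aldoc*, at means of 56.5 and 38.6 CPM. *Aldoc* and *Gja1* were higher. *Gfap* (−0.38, FDR 0.355), *Slc1a2* (−0.29, FDR 0.52) and *Aldh1l1* (−0.12, FDR 0.812) went the other way without a call in either fit. The neuron list summed to at most 0.361 CPM, the T cell list to at most 2.68 CPM. The 7 neutrophil markers summed to 131 to 321 CPM in the ARG1+ sort and 64.9 to 185 CPM in the ARG1− sort, higher in 5 of 5 animals. Most of this was *Mmp8* (206 ± 67.7 and 114 ± 48 CPM, FDR 0.0878, and 4.23e-05 with the block), *S100a8* was higher with the block (FDR 0.0154), *S100a9* was lower (−3.40, FDR 0.00977) and the defining gene *Ly6g* was near 0. Of the B and plasma cell markers, *Jchain* was lower (−2.87, FDR 0.0184) and *Ms4a1* was near 0. The monocyte, dendritic cell, microglia, border macrophage, neutrophil, and B and plasma cell sums moved with the sort in 5 of 5 animals. For microglia the log2 differences of the sum ranged from −1.35 to −0.074. Of the astrocyte markers, only *Gja1* and *Aldoc* were called. The part of these cell types in the differences below was not tested.

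Most genes of the set differed little between the sorts, and those that differed did so in both directions. Of the 36 genes, 35 passed the filter (CPM above 1 in at least 3 libraries), and *Acacb*, which makes malonyl-CoA at mitochondria, did not, at 0.547 ± 0.136 CPM in the ARG1+ sort and 0.299 ± 0.14 CPM in the ARG1− sort (SD, n = 5). Without the filter its log2 fold change was 0.77 (FDR 0.283). One gene, *Scd2*, was higher in ARG1+ cells (2.86% of the 35, against 6.82% of all genes tested), and 3, *Cyp51*, *Srebf2* and *Acly*, were lower (8.57% against 6.15%). Past both the FDR and an absolute log2 fold change of 1, edgeR called 0 of the 35 (1.45% of all genes), with 1 at an unadjusted p under 0.05 and that fold and 1 by DESeq2. The median log2 fold change of the 35 was −0.093, beside −0.0022 over all genes tested. A list median of this size says little of any single gene, since 14 values were above 0 and 21 below.

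With the animal as a block, 7 of the 35 were higher (20.0%, against 16.8% of all genes) and 13 lower (37.1%, against 18.3%). All 13 of those called lower fell in 5 of 5 animals and all 7 called higher rose in 5 of 5. Over the 35 genes, 9 were higher in each of the 5 animals (25.7%, against 20.0% of all genes) and 13 lower in each (37.1%, against 21.0%). The libraries of the groups did not overlap for 2 genes, *Scd1* and *Scd2*, both higher (5.71%, against 6.15%), and for 0 lower (against 5.20%). For most genes the ranges of the sorts overlapped, while the direction within an animal was often shared. Of the 20 genes called with the block, 12 were called with each animal left out in turn as well, and 8 (*Mvk*, *Dhcr7*, *Msmo1*, *Insig2*, *Fasn*, *Elovl5*, *Fads2* and *Scd1*) lost the call without at least 1 animal.

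**Figure D1:**
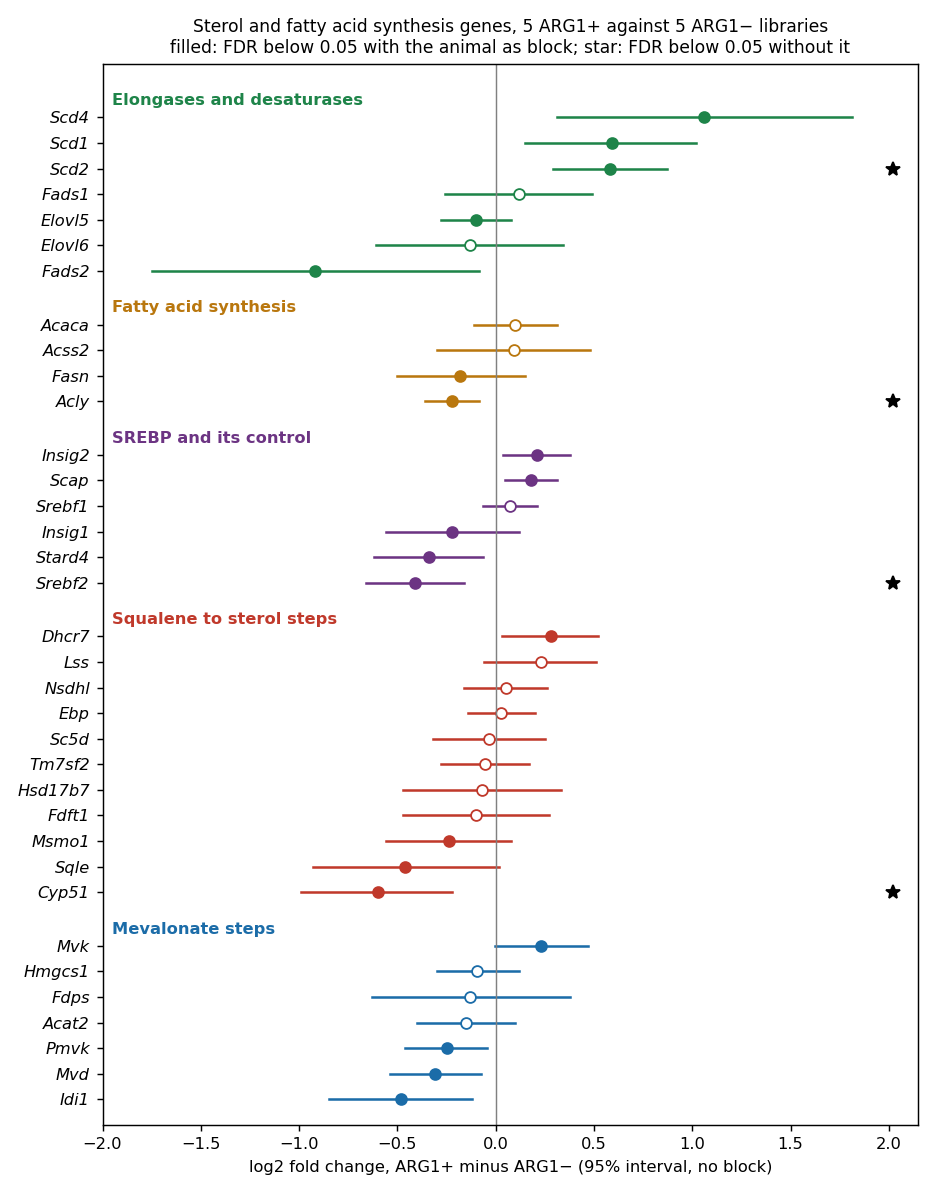
Log2 fold change of ARG1+ over ARG1− cells (x axis) with its 95% interval for the 35 genes tested, grouped by role. Filled points passed an FDR of 0.05 with the animal as block and stars passed it without the block (*Scd2* to the right of 0, *Acly*, *Srebf2* and *Cyp51* to the left).

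The control genes split. *Srebf2* (chromosome 15, 82147181 to 82205379, + strand of GRCm38), which encodes SREBP-2, stood at 102, 112, 118, 84.4 and 82.9 CPM in the ARG1+ cells of m2, m234, m6, m235 and m236, and at 132, 145, 152, 121 and 112 CPM in the ARG1− cells of the same animals. Each ARG1+ library was below its partner, although the highest ARG1+ library, that of m6, was above the lowest ARG1− one. On the log2 scale the difference was −0.41 (SE 0.114, FDR 0.0359) and also −0.41 with the block (SE 0.0361, FDR 2.77e-05). Without the small ARG1− library of m234 it was −0.37 and no longer called (FDR 0.065), whereas with the block it was called with any animal left out (highest FDR 0.000425).

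*Srebf1* (chromosome 11), the gene of SREBP-1, which drives the fatty acid genes, was nearly level. Its values were 70.8, 66.9, 72.2, 69.2 and 72.5 CPM in the ARG1+ sort and 70.8, 56.7, 71.5, 67.8 and 66.6 CPM in the ARG1− sort, in the same order of animals. The sorts differed by a log2 fold change of 0.073 with a 95% interval from −0.063 to 0.21 (FDR 0.463, and 0.196 with the block). Per kb of exon, *Srebf2* was 0.969 to 1.41 times as abundant as *Srebf1* in ARG1+ libraries and 1.43 to 2.17 times in ARG1− libraries. This ratio within a library was lower in the ARG1+ sort in 5 of 5 animals, with a mean difference of −0.50 on the log2 scale. With the sorts swapped within each animal, the 2-sided exact permutation test gave p = 0.0625, the smallest that 5 pairs allow, so it could not pass 0.05, and 0.0938 after adjustment over 3 such ratios, which were chosen after the values were seen. The annotation holds 2 basic transcripts of *Srebf2* and 1 of *Srebf1*, and the methods do not say how reads on several transcripts of a gene were counted, so levels per kb and ratios between genes are uncertain.

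*Scap*, the escort of both SREBPs, was higher in every ARG1+ library than in its partner, at 46.5, 46.6, 51.2, 44.7 and 50.5 CPM against 40.8, 40.4, 44, 40.1 and 46.1 CPM. The difference was small, 0.18 on the log2 scale (FDR 0.0712), and passed with the block (FDR 0.0045). In the annotation, 18.6% of the *Scap* exon bases lie opposite exons of *5830462I19Rik*, and the methods do not say if the counts took account of strand.

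The retention factor *Insig1*, itself an SREBP target and the most abundant control gene per kb (36.7 ± 8.4 CPM per kb in the ARG1+ sort and 42.8 ± 7.66 in the ARG1− sort, SD, n = 5), stood at 92.2, 128, 117, 82.5 and 75 CPM in the ARG1+ sort and 109, 140, 134, 98.6 and 95.4 CPM in the ARG1− sort. The sorts overlapped widely, since animals m234 and m6 were high in both. The log2 fold change was −0.22 (FDR 0.374) and −0.24 with the block (SE 0.038, FDR 0.00117). Its paralog *Insig2* went the other way, at 19.7, 17.9, 20.6, 21.1 and 17.7 CPM against 16.7, 16.5, 16.7, 18.9 and 15.2 CPM, a log2 fold change of 0.21 (FDR 0.0968, and 0.0128 with the block). The ratio of *Insig1* to *Insig2* was lower in 5 of 5 animals, with a mean difference of −0.44 on the log2 scale, and had the same p of 0.0625 (exact permutation test within animals, adjusted 0.0938). *Stard4*, a carrier of cholesterol between membranes, stood at 18, 18.6, 20.7, 13.1 and 15 CPM in the ARG1+ sort and 22.5, 20.1, 26.1, 20.3 and 18.9 CPM in the ARG1− sort (log2 fold change −0.34, FDR 0.0948, and 0.00354 with the block).

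**Figure D2:**
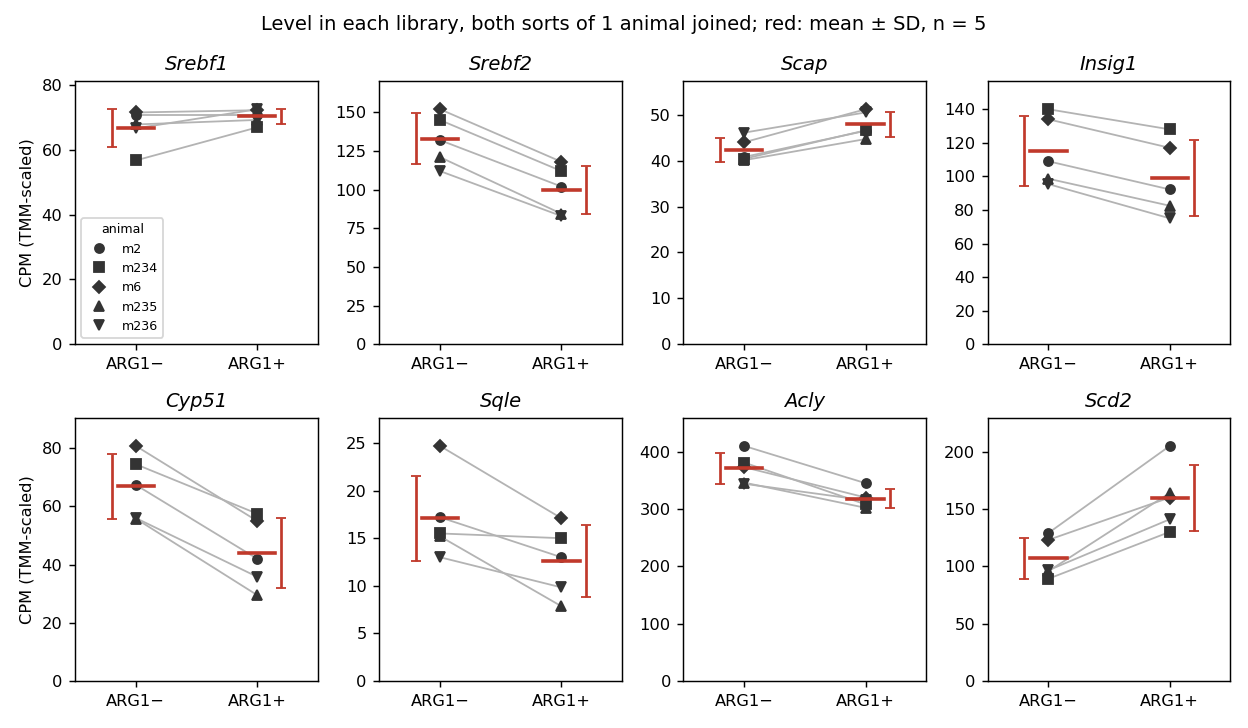
CPM (y axis, TMM-scaled) of 8 genes in ARG1− and ARG1+ libraries, with the symbol for the animal, a grey line joining both sorts of an animal, and the mean ± SD in red (n = 5). *Srebf2*, *Cyp51*, *Sqle*, *Insig1* and *Acly* fall along every line, *Scap* and *Scd2* rise along every line, and *Srebf1* stays between 56.7 and 72.5 CPM.

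In the mevalonate steps, which build isoprene units from acetyl-CoA, 0 of 7 genes were called by edgeR (3 lower at an unadjusted p under 0.05, and 2 lower by DESeq2 and 0 by limma-trend). Over all genes 6.82% were called higher and 6.15% lower. With the block, *Pmvk*, *Mvd* and *Idi1* were lower (42.9% of the 7, against 18.3% of all genes). *Mvk* was higher there (14.3%, against 16.8%). *Pmvk*, the phosphomevalonate kinase and by a small margin the most abundant of the group per kb over all libraries (15.9 CPM per kb, against 15.7 for *Hmgcs1*, which was above it in the ARG1+ sort at 15.2 against 14.6), had 23.8, 24.8, 29.7, 23.1 and 23.4 CPM in the ARG1+ sort and 27.6, 30.2, 35.5, 28.1 and 27 CPM in the ARG1− sort. Its log2 fold change was −0.25 (FDR 0.098, and 0.00198 with the block). Only the ARG1+ library of m6 reached into the ARG1− range.

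*Mvd*, the next enzyme, which decarboxylates mevalonate diphosphate, had 17.3, 16.6, 16, 14.2 and 12.5 CPM against 19.1, 22.6, 19.7, 16.8 and 17 CPM. On the log2 scale the difference was −0.31 (FDR 0.078, and 0.00434 with the block). *Idi1*, the isomerase that follows, had the largest difference of the group, with 5.8, 6.23, 5.64, 3.43 and 4.05 CPM against 7.35, 8, 7.61, 6.26 and 6.11 CPM (log2 fold change −0.48, FDR 0.0764, and 0.00392 with the block). In the annotation, 25.3% of the 50-base stretches of *Idi1* are shared with other genes, among them *Gm13502*.

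*Mvk*, the mevalonate kinase upstream of these 3, was higher in each animal, at 10, 11, 11.9, 8.73 and 10.9 CPM against 8.83, 8.12, 10.7, 7.87 and 8.98 CPM. Its log2 fold change of 0.23 passed only with the block (FDR 0.176 without and 0.0363 with it) and lost the call whichever animal was left out. *Hmgcs1*, the synthase at the entry whose promoter is shown above, had 52.8 ± 7.53 CPM in the ARG1+ sort and 56.4 ± 4.55 CPM in the ARG1− sort (log2 fold change −0.093, interval −0.30 to 0.12, FDR 0.55). *Acat2*, the acetoacetyl-CoA thiolase, had −0.15 (FDR 0.408) and has 39.1% of its 50-base stretches in common with another gene, mostly *Acat3*. *Fdps* had only 1.69 ± 0.523 and 1.83 ± 0.381 CPM. Of its exon bases, 77.4% lie under exons of *Gm43738* on the same strand, where the counting mode discards reads, so its level is uncertain.

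In the steps from squalene to sterol, *Cyp51* alone was called, as lower (9.09% of the 11, against 6.15% of all genes). With the block 3 genes were lower (27.3%, against 18.3%) and 1 higher (9.09%, against 16.8%). *Cyp51* (chromosome 5, 4081145 to 4104746, − strand), the lanosterol demethylase, had 42, 57.5, 55, 29.5 and 35.8 CPM in the ARG1+ sort and 67.4, 74.5, 80.8, 55.8 and 56 CPM in the ARG1− sort. The ARG1+ library of m234 was within the ARG1− range and the other 4 below it. The sorts differed by a log2 fold change of −0.60 (SE 0.177, FDR 0.0432), or 0.658 times the ARG1− level, and −0.64 with the block (FDR 7.15e-05). It fell by 0.37 to 0.92 on the log2 scale in the single animals. Without the ARG1− library of m234 it was −0.56 and not called (FDR 0.0731), whereas with the block *Cyp51* was called with any animal left out (highest FDR 0.00118).

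*Sqle*, the squalene epoxidase, had 13, 15, 17.1, 7.85 and 9.83 CPM in the ARG1+ sort and 17.2, 15.5, 24.7, 15.2 and 13 CPM in the ARG1− sort. Animal m234 hardly differed and m235 differed most. The log2 fold change was −0.46 (SE 0.217, FDR 0.18) and −0.48 with the block (SE 0.104, FDR 0.00577). *Msmo1*, the methylsterol oxidase that acts after *Cyp51*, had 22, 24.5, 29.6, 17.3 and 17.9 CPM against 23.7, 26.5, 32.2, 25.2 and 23.6 CPM (log2 fold change −0.24, FDR 0.294, and 0.0204 with the block).

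*Dhcr7*, the last reductase on the way to cholesterol, was the gene of this group that was higher with the block. Its values were 13.9, 13.8, 15.4, 11.4 and 14.3 CPM in the ARG1+ sort and 10.7, 13.8, 12.6, 9.3 and 10.9 CPM in the ARG1− sort, nearly equal in animal m234. On the log2 scale the difference was 0.28 (FDR 0.119, and 0.0127 with the block). *Lss*, the lanosterol synthase, was higher in 5 of 5 animals without a call in either fit (0.23, FDR 0.275, and 0.0916 with the block).

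*Ebp*, the sterol isomerase and the most abundant of the 11 per kb (22.5 ± 1.4 CPM per kb in the ARG1+ sort and 21.9 ± 2.39 in the ARG1− sort), had 40.5, 36.5, 39.1, 42.4 and 37.1 CPM against 39.5, 31.2, 40.2, 42 and 38 CPM. Its interval, −0.14 to 0.20 around 0.028, was the narrowest of the group. *Fdft1*, *Tm7sf2*, *Nsdhl*, *Hsd17b7* and *Sc5d* had log2 fold changes from −0.10 to 0.05 and an FDR of at least 0.727, with intervals that reached from −0.47 to 0.33. For *Fdft1*, the squalene synthase, 20.9% of the exon bases lie opposite exons of *Ctsb*.

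The sterol genes also varied between animals. Summed per kb of exon, the 11 genes stood at 71.2, 76.2, 80.9, 63.4 and 62.6 CPM per kb in the ARG1+ cells of m2, m234, m6, m235 and m236, and at 77.8, 78.7, 91.8, 76 and 71.2 CPM per kb in the ARG1− sort. Animal m6 was the highest in both sorts and m236 the lowest in both, and within an animal the sum was lower in ARG1+ cells in 5 of 5. The mevalonate sum was likewise lower in ARG1+ cells in 5 of 5 animals, by 0.082 to 0.24 on the log2 scale. The elongase and desaturase sum was higher in ARG1+ cells in 5 of 5, by 0.17 to 0.30. These sums are led by their most abundant genes and were not tested.

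**Figure D3:**
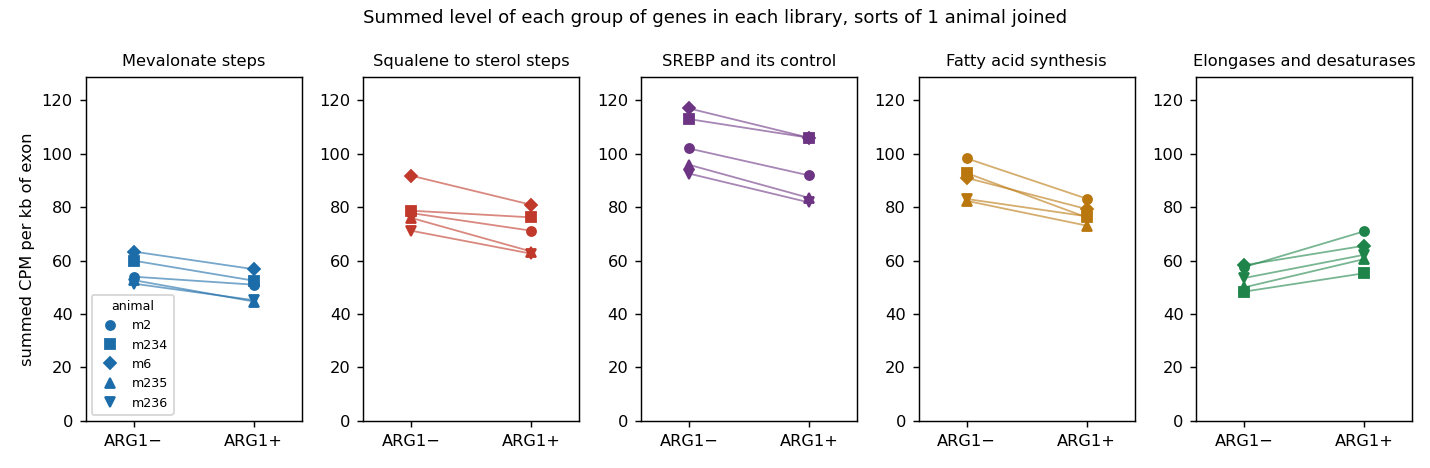
Summed CPM per kb of exon (y axis) of each group of genes in ARG1− and ARG1+ libraries, with the symbol for the animal and a line joining both sorts of an animal. All 5 lines fall in the first 4 panels and all 5 rise for elongases and desaturases, from 48.4 to 58.3 in ARG1− to 55.3 to 71 in ARG1+ cells.

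Fatty acid synthesis draws acetyl-CoA from citrate through ATP citrate lyase (*Acly*, chromosome 11, 100476353 to 100528000, − strand), the most abundant of the 36 genes per kb at 69 ± 3.6 CPM per kb in the ARG1+ sort and 80.4 ± 5.94 in the ARG1− sort (SD, n = 5). *Acly* had 345, 308, 320, 302 and 315 CPM in the ARG1+ sort and 410, 381, 373, 346 and 344 CPM in the ARG1− sort. The only overlap came from the ARG1+ library of m2, which was above the lowest ARG1− library and just under that of m235. The sorts differed by a log2 fold change of −0.22 (SE 0.0633, FDR 0.0397, and 0.00149 with the block), or 0.858 times the ARG1− level. Without the ARG1− library of m234 it was −0.21 (FDR 0.0617), and without the filter on low counts also −0.21 (FDR 0.104), neither of them called. With the block, *Acly* was called with any animal left out (highest FDR 0.0125).

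*Fasn*, the synthase that extends malonyl-CoA to palmitate, had 49.8, 55.4, 61.5, 40.1 and 47.1 CPM in the ARG1+ sort and 59.1, 72.2, 66.2, 42.3 and 48.4 CPM in the ARG1− sort. It was lower in every ARG1+ library than in its partner but nearly equal in m235 and m236. The log2 fold change was −0.18 (FDR 0.457, and 0.0318 with the block). *Acaca*, the cytosolic acetyl-CoA carboxylase, had 23.9 ± 1.51 and 22.1 ± 3.27 CPM (0.10, FDR 0.532), and 30.4% of its 50-base stretches are shared, mostly with *Gm5182*. *Acss2*, which makes acetyl-CoA from acetate, was low at 4.03 ± 0.938 and 3.82 ± 0.658 CPM (0.091, FDR 0.773). The ratio of *Acly* to *Acss2* was lower in 4 of 5 animals, with a mean difference of −0.28 on the log2 scale (exact permutation test within animals, p = 0.188, also 0.188 after adjustment).

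The SCD desaturases put the first double bond into saturated fatty acids, and *Scd2* was higher in both fits, *Scd1* and *Scd4* with the block. *Scd2* (chromosome 19, 44293674 to 44306864, + strand of GRCm38) had 205, 130, 160, 164 and 141 CPM in the ARG1+ sort and 129, 89.1, 123, 95.7 and 96.5 CPM in the ARG1− sort. Every ARG1+ library was above every ARG1− library, with m2 the highest and m234 the lowest in both sorts. On the log2 scale the difference was 0.58 (SE 0.133, FDR 0.0156), or 1.5 times the ARG1− level, and 0.59 with the block (FDR 3.59e-05). It was 0.53 without the ARG1− library of m234 and still called (FDR 0.0278).

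*Scd1* lies in the same cluster as *Scd2* and was far less abundant, at 0.528 ± 0.081 CPM per kb in the ARG1+ sort and 0.345 ± 0.0894 in the ARG1− sort, against 29.3 ± 5.28 and 19.5 ± 3.27 for *Scd2*. Its values were 3.13, 2.2, 2.79, 2.33 and 2.32 CPM in the ARG1+ sort and 1.96, 1.41, 2.08, 1.04 and 1.84 CPM in the ARG1− sort, without overlap. The sorts differed by a log2 fold change of 0.59 (FDR 0.0733, and 0.0159 with the block). About 4.56% of the 50-base stretches of *Scd1* and 3.97% of those of *Scd2* are shared, mainly within the family.

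*Scd4* was close to the limit of the filter. It had 2.5, 1.29, 1.62, 1.73 and 1.31 CPM in the ARG1+ sort and 1.29, 0.118, 0.972, 0.787 and 0.501 CPM in the ARG1− sort, where 0.118 CPM was a single count. It passed the filter through the ARG1+ libraries, since 5 of them but only 1 ARG1− library exceeded 1 CPM before scaling. The log2 fold change was 1.06 (SE 0.344, FDR 0.0638) and 1.14 with the block (FDR 0.0048), which made it the one gene past both limits there.

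Among the desaturases and elongases of polyunsaturated fatty acids, *Elovl5* and *Fads1* differed less. *Elovl5* had 54.9, 50.4, 55.9, 60.9 and 65.3 CPM in the ARG1+ sort and 57.2, 54.5, 61.2, 66.4 and 68.3 CPM in the ARG1− sort, a log2 fold change of −0.10 (FDR 0.432, and 0.0491 with the block). The call with the block was lost whichever animal was left out (highest FDR 0.156). The animals stood in the same order in both sorts. *Fads1*, the delta-5 desaturase, had 39.7 ± 9.17 and 36.7 ± 6.4 CPM (0.12, FDR 0.69).

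*Fads2*, the delta-6 desaturase, was low, at 0.695, 0.743, 1.3, 0.364 and 0.621 CPM in the ARG1+ sort and 1.77, 2.59, 1.5, 0.93 and 0.701 CPM in the ARG1− sort. Its log2 fold change was −0.92 (SE 0.383, FDR 0.13, and 0.0268 with the block), and it passed the filter mostly through ARG1− libraries (3, against 1 ARG1+ library). The difference was large in m2, m234 and m235 and small in m6 and m236. *Elovl6*, which extends palmitate, had 1.41 ± 0.2 and 1.5 ± 0.488 CPM (−0.13, FDR 0.729).

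**Figure D4:**
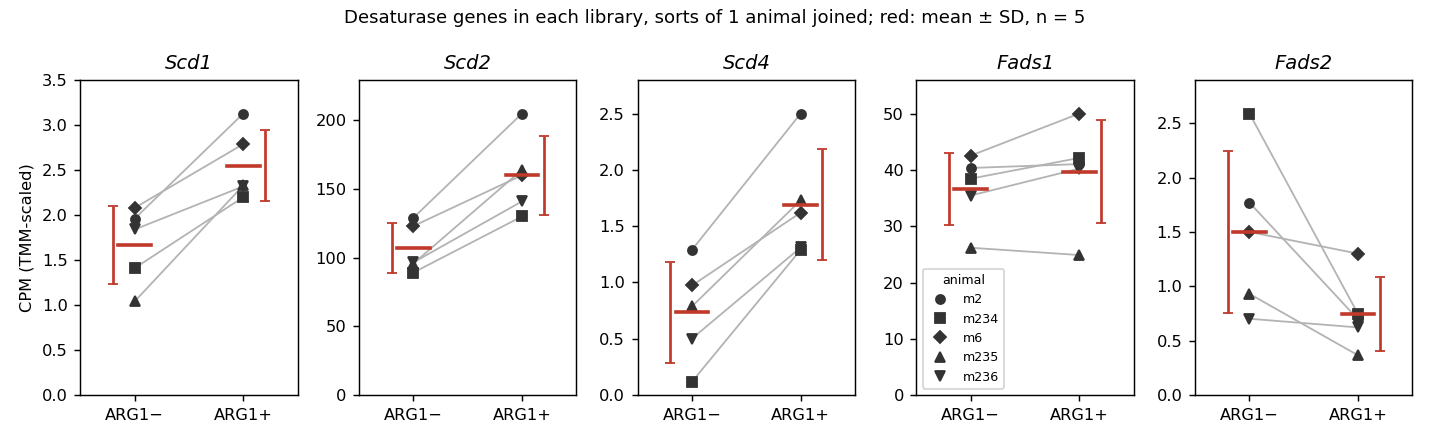
CPM (y axis, TMM-scaled) of 5 desaturase genes in ARG1− and ARG1+ libraries, with the symbol for the animal, a grey line joining both sorts of an animal, and the mean ± SD in red (n = 5). *Scd1*, *Scd2* and *Scd4* rise along every line, and *Fads2* has means of 1.5 ± 0.745 CPM in the ARG1− and 0.744 ± 0.341 CPM in the ARG1+ sort.

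Other genes of these pathways were read from 4 lists that did not overlap with the members. Of 57 listed genes in the table, 49 were tested, and 9 were higher (18.4%, against 6.82% of all genes) and 2 lower (4.08%, against 6.15%) in ARG1+ cells. With the block, 17 were higher (34.7%, against 16.8%) and 4 lower (8.16%, against 18.3%). Around SREBP processing, 3 of 12 genes were higher (25.0%, against 6.82% of all genes) and 1 lower (8.33%, against 6.15%). With the block 4 were higher (33.3%, against 16.8%) and 1 lower (8.33%, against 18.3%). *Mbtps2*, the site-2 protease that frees SREBP in the Golgi, stood at 25.1 ± 1.13 CPM in the ARG1+ sort and 20.1 ± 0.829 in the ARG1− sort (log2 fold change 0.32, FDR 0.00465). *Erlin2*, which takes part in degradation of sterol-sensing proteins, differed by 0.29 (FDR 0.00701), and *Lpin1*, a phosphatidate phosphatase, by 0.67 (FDR 0.0215). *Rnf145*, a ubiquitin ligase of the endoplasmic reticulum, was lower, at 30.7 ± 4.17 against 45.1 ± 8.14 CPM (−0.54, FDR 0.0139).

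Of 12 genes of the LXR system, 3 were higher (25.0%, against 6.82% of all genes) and 0 lower (against 6.15%; edgeR, 0 lower at an unadjusted p under 0.05 and 0 lower by DESeq2). With the block 6 were higher (50%, against 16.8%) and 1 lower (8.33%, against 18.3%). *Abca1*, the cholesterol exporter, rose from 939 ± 57.7 CPM in ARG1− to 1556 ± 125 CPM in the ARG1+ sort (SD, n = 5), without overlap (log2 fold change 0.73, FDR 0.000176). *Rxra*, the partner receptor, differed by 0.55 (FDR 0.000392), and *Smpdl3a*, a phosphodiesterase, by 0.59 (FDR 0.00351). *Mylip*, which degrades the LDL receptor, did not pass (0.027, FDR 0.904). *Abca1* was higher in the sort in which *Srebf2* and *Cyp51* were lower, and no relation between them was tested.

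Of 10 genes of sterol and isoprenoid use, *Nus1* of dolichol synthesis (0.47, FDR 0.0281) and *Fntb* of protein farnesylation (0.49, FDR 0.0283) were higher, and *Lbr*, a sterol reductase of the nuclear envelope, was lower (−0.25, FDR 0.0461), and with the block 3 were higher and 1 lower. Of 15 further fatty acid genes tested, 1 was higher (6.67%, near the 6.82% of all genes) and 0 were lower (against 6.15%). The higher gene was *Hacd4*, a dehydratase of fatty acid elongation (0.62, FDR 0.000895). At an unadjusted p under 0.05 edgeR had 1 lower, and DESeq2 called 1 lower. With the block 4 were higher (26.7%, against 16.8%) and 1 lower (6.67%, against 18.3%). *Scd3*, the remaining gene of the SCD family, had 1.42 ± 0.431 and 1.06 ± 0.174 CPM and did not pass (0.40, FDR 0.268).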

How the data were processed

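The authors sorted the cells, made strand-specific libraries (NEBNext Ultra II Directional) and read 50 bases from 1 end. They aligned to GRCm38 with STAR (2.7.10b in the submitters' processing notes, which also name Picard), counted on the basic annotation of Ensembl release 100 with summarizeOverlaps in Union mode and summed transcripts to genes. The deposited values are raw whole-number counts per gene, and no column was left unused. The sources used here state neither a use of strand in counting nor a block for the animal.

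Counts were tested with edgeR 4.0.16 (R 4.3.3; quasi-likelihood test, TMM library sizes, no block) at a Benjamini-Hochberg FDR below 0.05, on genes above 1 CPM in 3 or more libraries, the filter of the study. The study used limma-trend, run here as an alternative (limma 3.58.1, prior count 2), with DESeq2 1.42.0, other scalings, no filter, each library or animal left out, and the animal as a block. Both libraries of a number come from 1 mouse, and their residuals from the group mean correlated at 0.361 to 0.664 across genes (libraries of different mice at most 0.0675), so the numbers pair the libraries. Libraries of a group were further apart than sampling noise (their chi-square over its degrees of freedom was at least 14.2), so each was kept as 1 sample.

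One CPM is 8.4 counts in the smallest library and 28.2 to 35.5 in the others. Per-kb levels use the exon union of GENCODE M21 (GRCm38), in which all 36 genes have the table's coordinates. The members, lists and tests were chosen with earlier results of these data known. Values in every library are given for members past an FDR of 0.05 in either fit, for *Srebf1*, *Srebf2*, *Scap* and *Insig1*, and for the most abundant member of each role. From the other lists at most 4 called genes by FDR are named. *Mylip*, *Scd3*, *Csf1r* and the other gate markers were added after their values were seen. Some genes of these pathways are not reported here. The fits were tested on simulated counts with known changes.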

Additional observations from a re-analysis of the deposited data

Results flagged for a closer look

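Among 70 groups of 5 libraries, 4 held a library far from the other 4 by Dixon's criterion, where chance alone flags about 1 group in 20. *Pmvk* stood at 29.7 CPM in the ARG1+ library of m6 (others 23.1 to 24.8). *Hsd17b7*, a ketosteroid reductase of sterol synthesis, stood at 8.39 CPM in the ARG1+ library of m6 (others 4.94 to 5.94) and at 9.17 CPM in the ARG1− library of the same animal (others 5.18 to 6.06). *Acaca* stood at 16.4 CPM in the ARG1− library of m234, the smallest library (others 22.6 to 24.5).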

How the results depend on the processing

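Without the block, the calls rested on few libraries. Leaving out 1 library or animal gave 0 to 2 members called higher, 0 to 3 called lower and 0 to 1 past both limits, with medians from −0.10 to −0.031, and 6 to 12 genes called in the 4 other lists. *Scd2* lost its call only without m235, m236 or m6 as a whole animal (highest FDR 0.0541). *Cyp51*, *Srebf2* and *Acly* kept theirs in 5, 4 and 3 of 15 such fits: *Cyp51* and *Srebf2* when m234 or m6 lost its ARG1+ library or m235 or m236 its ARG1− library, *Cyp51* also without animal m234, and *Acly* when m2 lost its ARG1+ library or m235 or m236 its ARG1− library. Each such fit has fewer libraries. Over all genes, calls ran from 360 higher and 284 lower without animal m6 to 1037 and 911 without animal m234, against 937 and 845. With the replicate block there were 7 higher, 13 lower and 1 past both limits, and 21 called in the other lists. With the block and 1 animal left out, an alternative added after seeing the data, there were 3 to 6 higher (3 without m2, 4 without m6) and 10 to 13 lower. Over all genes these fits called 1478 to 2706 higher and 1612 to 2823 lower, against 2307 and 2519 with every animal. DESeq2 called 3 higher, 5 lower and 1 past both limits, with 1276 higher and 1307 lower over all genes. Scaling to total counts only moved the median to −0.13 and *Ebp* to −0.012, shifted all genes by −0.041 and gave 701 higher and 1282 lower of all genes, against 937 and 845. RLE scaling, limma-trend and no filter kept the counts of calls within 1.5 times, but without the filter *Acly* lost its call (FDR 0.104, 2 lower), and limma-trend gave a median of −0.060. Members near 0 changed sign when 1 library or animal was left out: *Fdps* ranged from −0.32 to 0.0065, *Fdft1* from −0.21 to 0.009, *Hsd17b7* from −0.21 to 0.11, *Ebp* from −0.026 to 0.068, *Sc5d* from −0.10 to 0.04, *Acss2* from −0.037 to 0.18 and *Elovl6* from −0.23 to 0.074. Members without overlap numbered 5 to 6 with 1 animal left out. Fewer libraries make non-overlap easier for any gene, and the share over all genes is not given for these fits. The rise is therefore not a result about the members. The cause of these changes was not tested. Depth limits *Scd4* and *Acacb*, with 1 count in their lowest library, *Elovl6*, with 9, and *Fads2* and *Scd1*, with 12.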
